A study of Homo sapiens with 2 samples.

Results

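The TERT locus at the tip of the short arm of chromosome 5 was examined in 2 deposited lists of ChIP-seq regions, 1 for the transcription factor GRHL2 and 1 for the histone methyltransferase MLL3. Members were chosen by position alone, as regions whose summit lay in a window of 300 kb around the gene (chromosome 5, 1150000 to 1450000, build hg19). The window held 3 of the 152864 GRHL2 regions and 0 of the 12150 MLL3 regions on chromosomes 1 to 22, X and Y. TERT occupies about 1253 to 1295 kb on the minus strand, with its start at 1295162, so that higher coordinates lie upstream of the gene. Both libraries came from KYSE510, an established line of human esophageal squamous cell carcinoma, for which the labels name no treatment or siRNA. The cells were fixed, sonicated and precipitated with an antibody against 1 factor. There was 1 library per antibody, and the labels describe the cells of both libraries alike, so the groups compared differ by antibody alone as far as the labels say. No replicate exists, the read depth is unknown, and intervals given with counts are exact 95% intervals that cover the counting of regions only.

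TERT encodes the catalytic subunit of telomerase, the reverse transcriptase that adds telomeric repeats to chromosome ends. Most somatic cells keep the gene silent, whereas most carcinomas express it and so escape telomere shortening. GRHL2 is a Grainyhead-like factor that maintains epithelial genes in keratinocytes and other epithelia, and it has been studied as a regulator of the TERT promoter in oral squamous cancer cells and keratinocytes. MLL3, also called KMT2C, places a methyl group on histone H3 at enhancers. The genes next to TERT, in the order of a RefSeq annotation, are SLC6A18 and SLC6A19 (amino acid transporters) on its downstream side, and CLPTM1L and SLC6A3 (the dopamine transporter) on its upstream side. That annotation is in GRCh38, so no region was assigned to these neighbours or to an exon or intron.

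Neither list held a region at the TERT promoter. No GRHL2 and no MLL3 region overlapped the stretch of 1 kb to either side of the start, and the same held for 5 kb to either side. The sequence is shown because it is the element at which no region of either list was found. It comprises the 250 bases before the RefSeq start of TERT (GRCh38.p14, chr5:1295069-1295318, minus strand, read in the direction of the gene), taken from the reference and not from KYSE510. Motif positions count from that RefSeq start, which was not matched to the hg19 start of 1295162. Capitals mark matches to an E-box (CACGTG) and to a GC box (GGGCGG or its reverse complement CCGCCC), the motifs of MYC-type and SP1-type factors.
TERT promoter: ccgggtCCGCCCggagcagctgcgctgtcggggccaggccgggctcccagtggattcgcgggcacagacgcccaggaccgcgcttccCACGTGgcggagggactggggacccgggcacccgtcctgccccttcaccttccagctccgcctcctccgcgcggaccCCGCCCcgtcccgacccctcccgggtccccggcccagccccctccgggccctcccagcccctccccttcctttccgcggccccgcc

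The promoter is rich in G and C (78.8%, higher than in 95.4% of the 35116 promoters of the same length) and holds 28 CpG dinucleotides, against a median of 11 per promoter. Searched on both strands, it had 1 E-box, at bases 163 to 158 before the start, which 6.34% of all promoters have at least once. It had 2 GC boxes, at bases 244 to 239 and 86 to 81 before the start, and 42.6% of promoters have at least 1. It had no match to the Grainyhead-like consensus AACCGGTT, which was present in 0.117% of promoters, or to its looser form AACNNGTT, which includes the consensus and was present in 3.0%. These are matches of letters in this window and say nothing on binding.

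The GRHL2 region closest to the start lay inside the gene. It ran from 1282339 to 1282635 (297 bp), with its summit 12.6 kb downstream of the start in the direction of transcription. Its fold enrichment, the authors' ratio of ChIP signal at the summit to local background, was 2.74, its −log10 p was 3.21 and its −log10 q was 0.91, which leaves its q above 0.05. In fold it exceeded 49.0% of all GRHL2 regions, so it sat at about the middle of the list.

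The other two regions lay upstream of the gene. The nearer ran from 1330653 to 1330958 (306 bp), with its summit 35.6 kb before the start, a fold of 2.82, a −log10 p of 3.66 and a −log10 q of 1.31, corresponding to a q just below 0.05. The farther ran from 1344816 to 1345226 (411 bp), with its summit 49.9 kb before the start, a fold of 3.09, a −log10 p of 4.50 and a −log10 q of 2.03, corresponding to a q just below 0.01. In fold they exceeded 64.5% and 70.4% of the GRHL2 list. No member lay downstream of TERT.

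The members lay near or above the middle of their list in fold and above its middle in significance. Their folds spanned only 2.74 to 3.09, against a median of 2.77 over all GRHL2 regions, of 2.59 on 5p and of 2.67 on the long arm, and a maximum of 169 in the list. Their −log10 q had a median of 1.31, against 0.757 in the list, and exceeded that of 63.5%, 69.0% and 80.5% of GRHL2 regions, from the first member to the third. Their median width was 306 bp, below the list's median of 361 bp, and 0 of the 3 had the smallest width of 265 bp, which 26.9% of the list had. Of the 3 members, 1 reached a −log10 q of 2 or more, as did 19.7% of all GRHL2 regions. None reached a −log10 q of 5, as 9.32% of the list did, or a fold of 5, as 8.47% did. None overlapped an MLL3 region by at least 1 bp, a property of 6.15% of all GRHL2 regions. With 3 members, none of these counts can be told from the share in the whole list. The MLL3 list ends at a −log10 q of 2.07 and the GRHL2 list at 0, so MLL3 was listed by the stricter rule, and a factor missing from a list may still be bound.

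**Figure D1:**
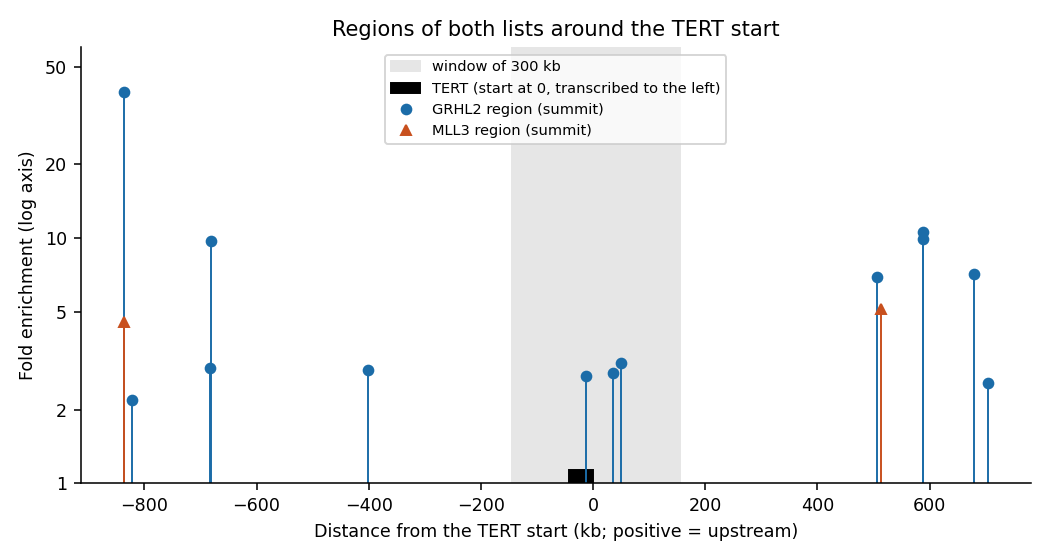
Fold enrichment (log axis) of each listed region against the distance of its summit from the TERT start in kb, for GRHL2 (circles) and MLL3 (triangles), with the window shaded and the gene as a black bar. The 3 GRHL2 regions of the window have folds of 2.74 to 3.09. GRHL2 regions with folds above these, and the nearest MLL3 regions, stand more than 500 kb away on either side. Folds rank regions within a list and are not compared between the lists.

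Around the members, both lists were empty over long distances. GRHL2 had no region over 389 kb below the first member (893073 to 1282338) or over 456 kb above the last (1345227 to 1801299). These were the 22nd and the 16th longest of the 855 empty stretches of 5p. The 3 members were therefore the only GRHL2 regions in 908 kb. Within the group, the stretch of 48.0 kb that contains the TERT start separated the first member from the second, and 13.9 kb separated the second from the third.

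The regions next outside the window varied in strength. On the downstream side, a GRHL2 region at 892807 to 893072 had a fold of 2.89 and a −log10 q of 1.36, much like the members. The nearest downstream region with a −log10 q of 2 or more was at 613081 to 613640, 682 kb from the start, with a fold of 9.70 and a −log10 q of 29.7. On the upstream side, the first region was at 1801300 to 1801946, 506 kb from the start, with a fold of 6.96 and a −log10 q of 20.2. It was followed by a pair at 1882379 to 1883257 (fold 10.6) and 1883553 to 1884278 (fold 9.88).

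MLL3 left a still longer stretch empty than GRHL2, whose list reaches lower significance. GRHL2 regions with a −log10 q of 2 or more left 0.731 Mb empty around the start, and those with 5 or more left 1.19 Mb. The nearest MLL3 regions were at 1808634 to 1808885 (fold 5.15, −log10 q 7.81), 514 kb upstream of the TERT start, and at 458964 to 459219 (fold 4.53, −log10 q 4.85), 836 kb downstream. The latter overlapped a GRHL2 region and the former did not. Between them lay 1.35 Mb without an MLL3 region. Of the 65 stretches of 5p without an MLL3 region 8 were at least that long, this one included, and they made up 49.9% of the arm.

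How usual such distances are depended on the arm. The edge of the nearest GRHL2 region was 12.5 kb from the TERT start, and 75.6% of all bases of 5p (0 to 46 Mb) were at least as far from any GRHL2 region. On 5q the same was true of 13.5% of bases. The nearest MLL3 edge was 513 kb away, and 33.9% of the bases of 5p and 9.90% of those of 5q were as far from any MLL3 region. Bases to which reads cannot be mapped are included in these shares.

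The window held as many GRHL2 regions as the median stretch of the same length on the short arm. Its 3 regions correspond to 10.0 per Mb (95% interval 2.06 to 29.2). The rest of 5p held 851 regions, or 18.6 per Mb, which gives a ratio of 0.537 with an interval of 0.111 to 1.57 that includes 1. Among 153 consecutive tiles of 5p as long as the window, the median was 3 regions (quartiles 1 and 5, maximum 93), 72 tiles had fewer than the window, 25 had the same number and 56 had more. The mean of the arm was raised by 3 bins of 1 Mb between 38 and 41 Mb, which held 401 of its 854 GRHL2 regions (47.0%). Without those bins, which were singled out after the densities had been seen, the rest of 5p had 10.5 regions per Mb, and the ratio of the window to it was 0.949 (interval 0.195 to 2.79). A wider window of 1 Mb centred on the start took in the empty stretches and held 4 GRHL2 regions. Its ratio to the rest of 5p, dense bins included, was 0.212 (interval 0.0576 to 0.544). That interval lay below 1 but treats regions as independent, and the ratio without the dense bins was not computed. Bins of 1 Mb on 5p had a median of 9.5 GRHL2 regions and a lowest count of 1. The bins centred 2, 5, 7, 30 and 32 Mb from the start also held 4. Those centred 3, 4 and 6 Mb from it held fewer, with 1, 3 and 3.

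At stricter thresholds the window had 1 region or none, as had most of 5p. With a −log10 q of 2 or more, the window's single region corresponds to 3.33 per Mb, against 3.46 per Mb in the rest of the arm (ratio 0.964, interval 0.0243 to 5.45). At a −log10 q of 5 or more the window had 0 regions, as had 99 of the 153 tiles (64.7%). For MLL3 the window's count of 0 was shared by 109 of the 153 tiles of 5p (71.2%), since the arm held only 64 MLL3 regions.

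Compared with the long arm, the window was sparse. The 437 tiles of 5q had a median of 31 GRHL2 regions (quartiles 21 and 43), and 7 of them (1.60%) had as few as the window or fewer. At a −log10 q of 2 or more the contrast was smaller, and 113 of the 437 tiles (25.9%) had at most 1 region. Of the tiles of 5q, 167 (38.2%) had no MLL3 region.

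**Figure D2:**
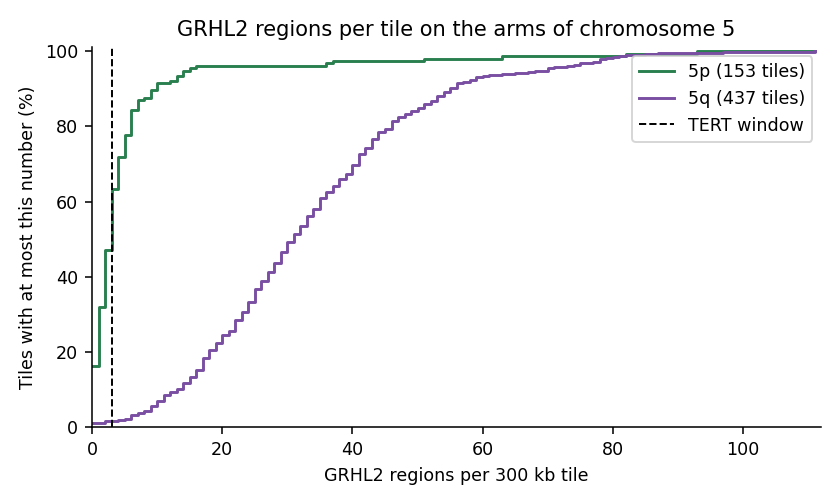
Share of tiles (%) with at most the number of GRHL2 regions on the horizontal axis, for 153 tiles of 300 kb on 5p and 437 on 5q, with the TERT window as a dashed line at 3 regions. The line crosses the curve of 5p near its middle and that of 5q at its lower end.

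The short arm as a whole carried fewer regions of both factors than the long arm. GRHL2 had 854 regions on 5p, 18.6 per Mb, and 14549 on 5q, 111 per Mb, a density 5.97 times higher on 5q (interval 5.57 to 6.40). MLL3 had 64 regions on 5p, 1.39 per Mb, and 695 on 5q, 5.29 per Mb, 3.80 times higher on 5q (interval 2.94 to 4.99). The plot along chromosome 5 shows that the low density begins at the TERT end and extends over most of 5p. The first part of 5q was also below that arm's median of 110 GRHL2 regions per bin of 1 Mb. Bins centred 48 to 72 Mb from the TERT start held between 5 and 86, and the bin at 73 Mb held 212. Without the 3 dense bins of 5p, the GRHL2 density of 5p was 0.0951 times that of 5q, against 0.168 with them.

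**Figure D3:**
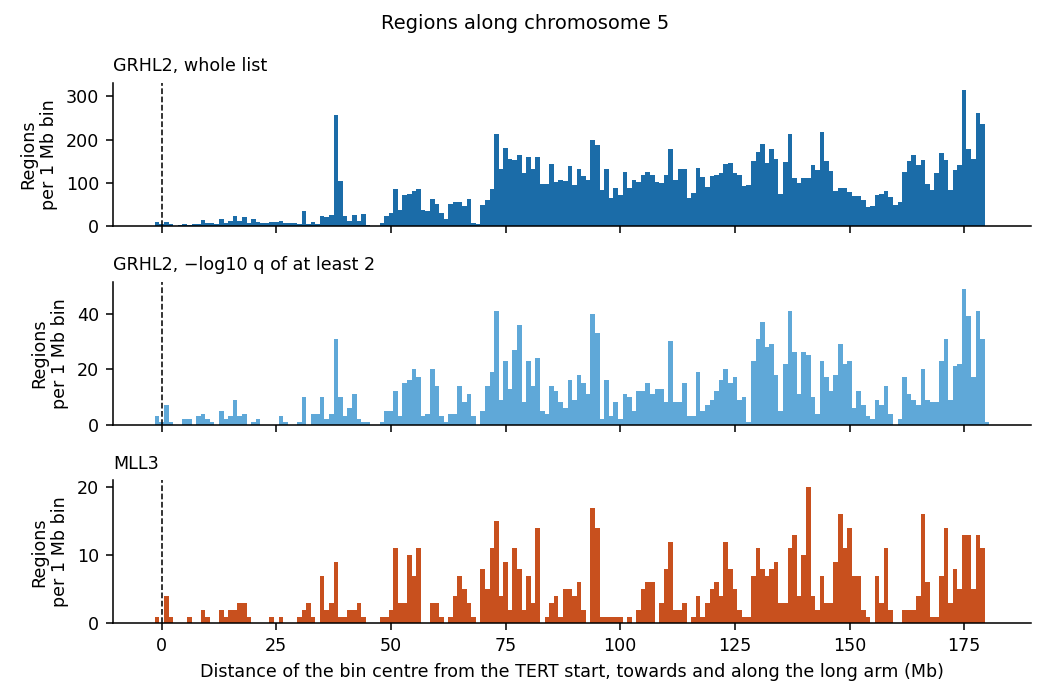
Number of regions per 1 Mb bin against the distance of the bin from the TERT start in Mb, for all GRHL2 regions, GRHL2 regions with a −log10 q of 2 or more, and MLL3 regions. The dashed line marks TERT, which lies in the sparse short arm, and the tallest GRHL2 bars of the short arm, with 257 and 104 regions, stand 38 and 39 Mb from it. The bins are centred on the TERT start and so do not coincide with the 3 dense bins of the text.

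Among classes of GRHL2 regions by q, the ratio between the arms was higher in the weakest class than in the strongest. For regions with a q above 0.05, 5q was 6.41 times as dense as 5p (interval 5.90 to 6.97, with 598 regions on 5p). For those with a q between 0.01 and 0.05 the ratio was 6.21 (interval 5.06 to 7.70), and for a −log10 q of 2 to 5 it was 5.57 (interval 4.38 to 7.18). It was 3.49 (interval 2.57 to 4.83) for a −log10 q of 5 to 20 and 2.59 (interval 1.88 to 3.67, with 42 regions on 5p) for 20 and above. The intervals of the weakest and the strongest class did not overlap, but they treat regions as independent. Of the 854 GRHL2 regions of 5p, 401 lay in the 3 dense bins, and the classes were not recomputed without them. For regions of the smallest width, a class that cuts across those by q and holds no member, the ratio was 7.06 (interval 6.14 to 8.15). The first member falls in the first of these classes, the second member in the second and the third member in the third, and the window had none in the upper classes.

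**Figure D4:**
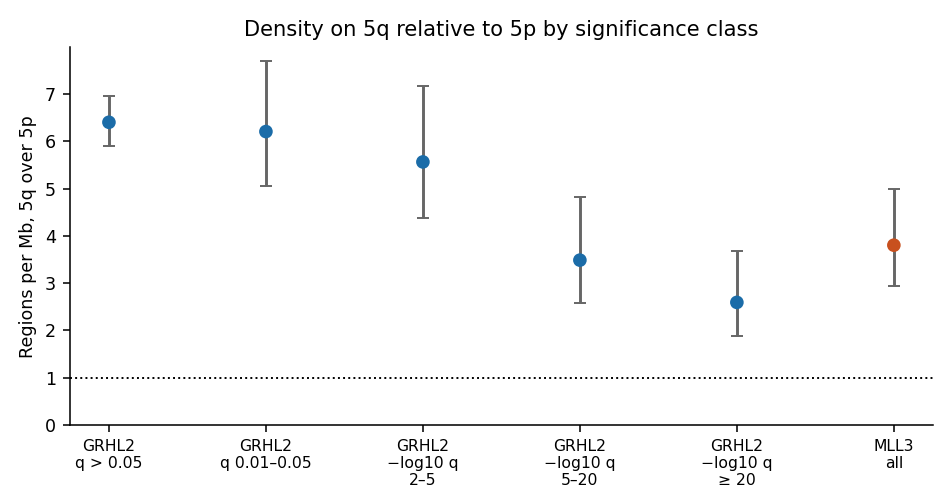
Regions per Mb on 5q divided by regions per Mb on 5p, for 5 classes of GRHL2 regions by q and for all MLL3 regions. Points are ratios, bars are exact 95% intervals that cover the counting of regions only, and the dotted line marks equal density. The ratio runs from 6.41 for GRHL2 regions with a q above 0.05 to 2.59 for a −log10 q of 20 and above.

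GRHL2 regions of the short arm less often had a q above 0.05 than those of the long arm, but their medians were lower. The median fold was 2.59 on 5p and 2.67 on 5q, and the median −log10 q was 0.712 on 5p and 0.757 on 5q. On 5p 70.0% had a q above 0.05 (interval 66.8 to 73.1%), against 75.1% on 5q (74.4 to 75.8%) and 68.9% in the whole list. The share that overlapped an MLL3 region was 5.50% on 5p (4.07 to 7.25%) and 3.84% on 5q (3.54 to 4.17%). Among those with a −log10 q of 2 or more it was 21.4% on 5p (15.3 to 28.6%) and 22.7% on 5q (20.9 to 24.7%). The copy number of the arms and the local input coverage were not analysed here, and their part in these densities was not tested.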

How the data were processed

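ChIP-seq regions of 1 MLL3 and 1 GRHL2 library from KYSE510 were analysed as deposited. Per the submitters' processing notes, BWA, Picard, MACS2 and deepTools were used, with build hg19; no version or setting is given in the sources used here. Each region has a fold enrichment (a ratio), a −log10 p, a −log10 q and a score, all deposited by the authors; the score was not used. They rank regions within a list. Region names give the input as control.

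Regions on assembled chromosomes were counted by summit and coordinates made 1-based with Python 3.11.15, pandas 2.3.3 and scipy 1.17.1. The long arm was taken from the end of the longest stretch of chromosome 5 without a region (49598705) to the last region (180900927), 131 Mb. Counts carry exact Poisson intervals, shares Clopper-Pearson intervals and density ratios conditional binomial intervals. They treat regions as independent, and no p-value was computed, since regions are not replicates. The density ratio with its interval and the overlap of regions were tested on simulated data. Regions named are all those of the window, those nearest to the TERT start and those next outside the window. The members and these choices were made with earlier results of these data known. Promoter sequence is from RefSeq (GRCh38.p14); 1 of 1 gene matched. Regions were not assigned to other genes, telomerase subunits included, because no hg19 annotation was used here.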

Additional observations from a re-analysis of the deposited data

How the results depend on the processing

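Of 31 alternatives, 21 left a value within 1.5 times (counts) or within its interval (ratios and ranks), 10 moved it and 0 reversed it. The 21 include the window of 1 Mb centred on the start. Its ratio of 0.212 lay within the main interval of 0.111 to 1.57, but its own interval (0.0576 to 0.544) excluded 1. The count of 3 GRHL2 regions in the window fell to 1 at a −log10 q of 2 or more and to 0 at a −log10 q or a fold of 5 or above; the ratio of the window to the rest of 5p was then 0.964, 0 and 0. The GRHL2 density of 5p relative to 5q, 0.168, became 0.239 at a −log10 q of 2 or more, 0.327 at 5, 0.300 at a fold of at least 5 and 0.0951 without the dense bins. The share of tiles of 5p with fewer regions than the window was 47.1%, 56.2% at a −log10 q of 2 or more and 50% with tiles shifted by 150 kb. The omission of dense bins and both settings of the tiles were chosen after seeing the data. The counts of 0 for MLL3, for shared regions and for the promoter stayed 0 in the 8 alternatives run for them. Thresholds that only remove regions could not raise a count of 0, nor could a narrower stretch around the start. The settings for shared regions were fixed too, since no MLL3 region lay in the window. Only any overlap of MLL3 with the window and the stretch of 5 kb to either side of the start could have done so. All 8 are counted among the 21. Read depth is unknown, and its part in the lists was not tested. No paired analysis was possible because neither antibody had a second library.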

Other observations

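Set beside whole chromosomes, each measured between its first and last region without its longest empty stretch, the 18.6 GRHL2 regions per Mb of 5p were close to the lowest values of the list. Chromosome X had 12.7 per Mb, chromosome 4 had 17.6 and chromosome 18 had 20.5, and chromosome 11 had the most with 96.7. Chromosome Y was not measured. At a −log10 q of 2 or more, 5p had 3.46 per Mb, below chromosome X, the lowest of those measured with 4.05. Chromosome 5 as a whole had 86.9, with 14549 of its 15403 regions on 5q. The 3 dense bins of 5p held 95, 223 and 83 GRHL2 regions, against a median of 9.5 per bin of 1 Mb on the arm and 110.0 on 5q.

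The strongest GRHL2 region among the plotted surroundings of the TERT start had a fold of 39.3 and a −log10 q of 202, with its summit 836 kb downstream of the start. The MLL3 region that overlapped it was among the weaker ones of its list, with a fold above that of 10.8% of MLL3 regions.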
